A study of Mus musculus with 9 samples.

Results

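The nuclear-encoded subunits of the mitochondrial respiratory chain were examined in red cell precursors that lack, or carry a reduced dose of, the adult beta-globin genes. Members were chosen by a rule on gene symbols, drawn up with earlier results of these data known. It took all genes named Nduf with a letter a, b, c, s or v and a number. Sdha to Sdhd, Uqcr, Cyc1, Cox5 to Cox8 subunits and Atp5 were also taken. This gave 80 genes of the 19938 that have a probe set with a single gene symbol, each represented by its probe set with the highest mean signal, and 77 of them passed the filter on low signal, against 12898 genes in all. By complex, the 77 genes comprised 33 of complex I, 4 of complex II, 9 of complex III, 14 of complex IV and 17 of complex V. Ndufa4 and its paralog Ndufa4l2 were counted with complex IV, to which Ndufa4 belongs despite its name. Cox4i1, Cox4i2 and Ndufab1 are subunits that the symbol rule does not reach, and they were treated separately.

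Erythroblasts were sorted from mouse fetal livers (E14.5) for CD71 (the transferrin receptor), Ter119 (a red cell surface marker) and high forward scatter. The groups were Th3/Th3 homozygotes, Th3/+ heterozygotes and wild type embryos, all from Th3/+ intercrosses, with 3 samples and 3 arrays each. Th3 deletes both adult beta-globin genes of a chromosome and models beta-thalassemia, and all groups share a 129SV background backcrossed to C57BL/6 for 9 generations. The labels call the samples biological replicates but do not give whether each was a single embryo or a pool, so the p-values measure the spread between these samples. Since the cells are a bulk sort, fewer cells of a type and less RNA per cell cannot be told apart.

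The respiratory chain passes electrons from NADH (complex I) and succinate (complex II) through ubiquinone to complex III, cytochrome c and complex IV, which reduces oxygen. The proton gradient built on the way drives ATP synthase (complex V). Most subunits are made from nuclear genes, and a small set, at the heart of complexes I, III, IV and V, is made from mitochondrial DNA, so the assembled complexes need both genomes and a large group of assembly factors. In erythroblasts mitochondria also carry out the first and the last steps of heme synthesis, and they are removed by mitophagy at the end of maturation.

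Signals are log2 values per probe set, and a level of 1 probe set cannot be set against that of another. Array medians lay between 4.97 and 5.05 and the highest value on each array between 14.03 and 14.20. Th3/Th3 replicate 1 and Th3/+ replicate 1 stood apart from the other arrays on the second principal component (scores of 25.5 and 20.5, the others between -14.9 and 7.7). This component, with 16.7% of the variance, also followed the replicate number. In each genotype replicate 1 scored highest and replicate 3 lowest, at 7.7 and -12.0 in wild type. Of the 9 erythroblast markers measured, 7 fell in Th3/Th3 against wild type and 0 rose (limma, adjusted p under 0.05). Of all probe sets, 4.98% were called lower and 7.31% higher. The summed linear signal of the 9 erythroblast markers was 16004 to 19636 in Th3/Th3, 29629 to 31396 in Th3/+ and 29332 to 33569 in wild type arrays. Of 8 macrophage markers past the filter, 1 fell in Th3/Th3, and the summed signal of the 10 on the array was 294 to 338 in Th3/Th3, 342 to 481 in Th3/+ and 351 to 471 in wild type. The summed signal of 5 megakaryocyte markers was 568 to 683 in Th3/Th3, below 825 to 1010 in Th3/+ and 749 to 1059 in wild type, with 0 of 5 past the test (limma, 2 lower at an unadjusted p under 0.05). In the marker lists for hepatoblasts, granulocytes and mast cells, lymphoid cells, and endothelial and stromal cells, 0 members passed the test in Th3/Th3 against wild type (limma, also 0 at an unadjusted p under 0.05), and the summed signals of Th3/Th3 and wild type overlapped. The part of these shifts in the results below was not tested.

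Th3/Th3 against wild type asked how the subunit genes differ when both adult beta-globin loci are lost. Of the 77 genes, 11 rose and 0 fell (14.3% higher), against 7.31% of all 17742 probe sets tested called higher and 4.98% called lower, or 7.71% and 5.37% of genes with 1 probe set each. The calls covered 7 genes of complex I, 1 of complex II, 2 of complex III, 1 of complex IV and 0 of complex V. These counts come from a fit without the replicate number. With a block for that number, 9 of the 77 genes were called higher, against 8.14% of all probe sets. Of these 9, 7 were among the 11. Ndufa2, Ndufa7, Ndufc1 and Ndufc2 were then not called (limma adjusted p = 0.0589, 0.0539, 0.0644 and 0.0645). Changes were small. The median of the 77 genes was 0.20 on the log2 scale, with the middle of the distribution between 0.06 and 0.31. Only 5 of the 77 genes differed by more than 1.5-fold, against 2219 of all 17742 probe sets. At a mean signal of 9 to 12 it was 3 of 51 subunit genes and 451 of 1442 genes of all kinds. A difference above 0 was seen in 65 genes (84.4%), against 50% of all probe sets.

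Genes of all kinds were called higher more often at a mean signal of 9 or more than below it, and most subunit genes lie there. Among genes with a mean signal of 9 to 12, 8 of 51 subunit genes were called higher (15.7%), close to the 236 of 1442 genes of all kinds at that level (16.4%). At a mean of 12 or more, 2 of 18 subunit genes (11.1%) and 28 of 161 of all genes (17.4%) were called higher. Under a mean of 9 it was 1 of 8 (12.5%) and 731 of 11295 (6.47%). The lower calls differed more: 0 of 51 subunit genes against 290 of 1442 genes at 9 to 12, and 0 of 18 against 25 of 161 at 12 or more. The median change at 9 to 12 was 0.23 for subunit genes and -0.03 for all genes. These levels were chosen after the values were seen and carry no test.

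**Figure D1:**
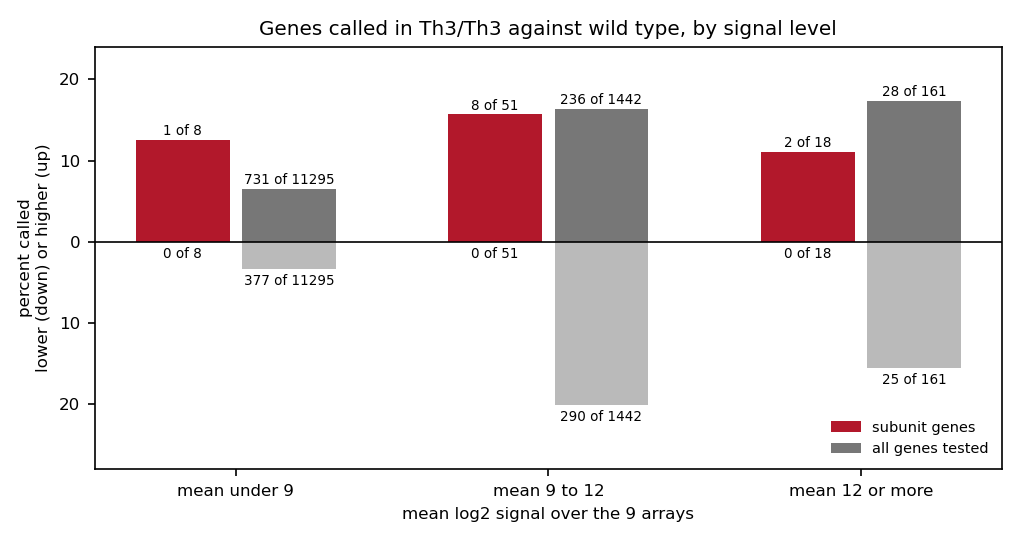
Percent of subunit genes (red) and of all genes tested (grey) called higher (bars up) or lower (paler bars down) in Th3/Th3 against wild type, by mean log2 signal over the 9 arrays, with the number called of the number tested at each bar. The upward bars of both kinds are close at 9 to 12 (8 of 51 and 236 of 1442), while the downward bars hold 0 of 51 subunit genes and 290 of 1442 genes.

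The number of calls depended on single arrays. It was 3 without wild type replicate 1, 6 without wild type replicate 2, 3 without wild type replicate 3, 7 without Th3/+ replicate 2, 7 without Th3/Th3 replicate 1 (6 higher and Cox6a1 lower), 3 without Th3/Th3 replicate 2 and 7 without Th3/Th3 replicate 3. Without both arrays that stood apart, 8 rose and 1 fell. After quantile normalization 8 rose and 1 fell as well, the falling gene being Cox6a1 each time. The median change kept its sign throughout, between 0.15 and 0.25 over 23 alternatives.

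Cox7a2l had the largest change among the 77 genes. It encodes a COX7A-related protein, also called SCAF1, that has been described as linking complexes III and IV into supercomplexes. Its signal was 11.47, 11.21 and 11.34 in Th3/Th3, 10.63, 10.84 and 10.81 in Th3/+, and 10.34, 10.49 and 10.51 in wild type. The 3 genotypes did not overlap, with Th3/+ in between. Cox7a2l rose by 0.89 in Th3/Th3 against wild type (1.86-fold, SE 0.10, limma adjusted p = 0.000809). Its other probe set gave 0.74 (adjusted p = 0.00151), and Cox7a2l was the only subunit gene called in all 23 alternatives.

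In complex III, Uqcrc2, a core protein on the matrix side, read 10.63, 10.53 and 10.48 in Th3/Th3, 10.08, 10.19 and 10.22 in Th3/+, and 9.88, 9.95 and 10.15 in wild type. All Th3/Th3 arrays lay above all others. Uqcrc2 rose by 0.55 (SE 0.10, adjusted p = 0.00810) and was called in 22 of 23 alternatives. Uqcrh, the hinge protein that helps cytochrome c dock, rose by only 0.19, with 12.77, 12.74 and 12.74 in Th3/Th3, 12.62, 12.58 and 12.66 in Th3/+, and 12.52, 12.61 and 12.55 in wild type (SE 0.04, adjusted p = 0.0259). Its replicates were tight, and the change was called in 11 of 22 alternatives that kept it. After quantile normalization it was 0.10 (adjusted p = 0.142). All 9 genes of complex III had a difference above 0, with a median of 0.23. Cyc1, cytochrome c1, had the smallest (0.04, adjusted p = 0.864), with 10.58, 10.50 and 10.48 in Th3/Th3 against 10.59, 10.43 and 10.43 in wild type.

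Complex II, succinate dehydrogenase, which also serves the tricarboxylic acid cycle, was uneven. Sdhb, the iron-sulfur subunit, read 9.95, 10.09 and 9.73 in Th3/Th3, 9.24, 9.35 and 9.52 in Th3/+, and 9.28, 9.27 and 9.39 in wild type, and rose by 0.61 (1.52-fold, SE 0.13, adjusted p = 0.0145). The Th3/Th3 arrays lay above all others, and Th3/+ overlapped wild type. Sdhd, a membrane anchor, differed by 0.68 with a wider spread (8.11, 7.72 and 8.55 in Th3/Th3 against 7.33, 7.44 and 7.56 in wild type) and missed the threshold (adjusted p = 0.0519). Sdhc, the other anchor, differed by 0.13 (adjusted p = 0.556). Sdha, the flavoprotein that oxidizes succinate, differed by -0.23 (SE 0.16, adjusted p = 0.407), the lowest value in complex II.

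Complex I, the largest group, held most of the calls, 7 of 33 genes (21.2%, against 7.31% of all probe sets called higher), with a median of 0.27 and 30 differences above 0. Most of its genes had a mean signal of 9 or more. Of all genes, 16.4% were called higher at 9 to 12 and 17.4% at 12 or more. Complexes II and III had 1 of 4 (25%) and 2 of 9 (22.2%). The complex I count rested on single arrays. Leaving out Th3/Th3 replicates 1, 2 and 3 in turn gave 2, 0 and 4 calls. It was 3 each without Th3/+ replicates 2 and 3, and 1, 2 and 0 without wild type replicates 1, 2 and 3. With a block for the replicate number complex I had 3 calls of 33, against 8.14% of all probe sets called higher. Complexes II and III then had 2 calls each. In the matrix arm, which takes up NADH, 4 of 15 genes rose, and all 15 differences were above 0. Ndufs8, a core subunit that holds iron-sulfur clusters, read 9.81, 9.81 and 9.33 in Th3/Th3, 9.27, 9.10 and 9.38 in Th3/+, and 9.13, 8.83 and 9.05 in wild type. It rose by 0.65 (1.57-fold, SE 0.16, adjusted p = 0.0289), the largest called change of complex I. The other 5 core subunits measured were not called, from Ndufv2 (0.06) to Ndufs7 (0.47, adjusted p = 0.0618).

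Ndufa6, an accessory subunit of the matrix arm that binds an acyl carrier protein, read 10.42, 10.41 and 10.21 in Th3/Th3, 9.94, 9.82 and 9.93 in Th3/+, and 9.84, 9.95 and 9.68 in wild type. It rose by 0.53 (SE 0.11, adjusted p = 0.0143) and was called in 20 of 23 alternatives. Ndufa2, with a thioredoxin-like fold, rose by 0.38 (adjusted p = 0.0395), reading 12.37, 12.43 and 12.11 in Th3/Th3, 12.09, 11.86 and 12.06 in Th3/+, and 11.82, 12.04 and 11.92 in wild type. Ndufa7 rose by 0.46 (adjusted p = 0.0474), and its Th3/+ arrays also lay above wild type: 9.94, 9.66 and 9.52 in Th3/Th3, 9.45, 9.39 and 9.56 in Th3/+, and 9.28, 9.17 and 9.29 in wild type. Ndufa2 was called in 8 of 22 alternatives and Ndufa7 in 9 of 23. Neither was called with the replicate block (limma adjusted p = 0.0589 and 0.0539).

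In the membrane arm of complex I, which pumps protons, 3 of 18 accessory genes rose (16.7%). Of all probe sets 7.31% were called higher, and of all genes with a mean signal of 9 to 12 it was 16.4%. Ndufb3 read 8.79, 8.82 and 8.88 in Th3/Th3, 8.18, 8.43 and 8.60 in Th3/+, and 8.05, 8.42 and 8.29 in wild type, and rose by 0.58 (SE 0.15, adjusted p = 0.0334). Ndufc1 rose by 0.47 (adjusted p = 0.0471), with 9.77, 9.91 and 9.63 in Th3/Th3, 9.48, 9.11 and 9.29 in Th3/+, and 9.21, 9.40 and 9.29 in wild type. Ndufc2 rose by 0.27 (adjusted p = 0.0444), with 11.90, 12.07 and 11.92 in Th3/Th3, 11.64, 11.69 and 11.80 in Th3/+, and 11.76, 11.70 and 11.60 in wild type. Ndufc1 was called in 9, Ndufc2 in 10 and Ndufb3 in 16 of 23 alternatives. In all 3 the Th3/Th3 arrays stood alone at the top while Th3/+ and wild type overlapped. Ndufc1 and Ndufc2 were not called with the replicate block (limma adjusted p = 0.0644 and 0.0645). Ndufb5 differed by as much as Ndufs8 (0.65) but more variably (SE 0.19, adjusted p = 0.0509). Ndufa3 had the lowest value of complex I, -0.10 (adjusted p = 0.563).

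**Figure D2:**
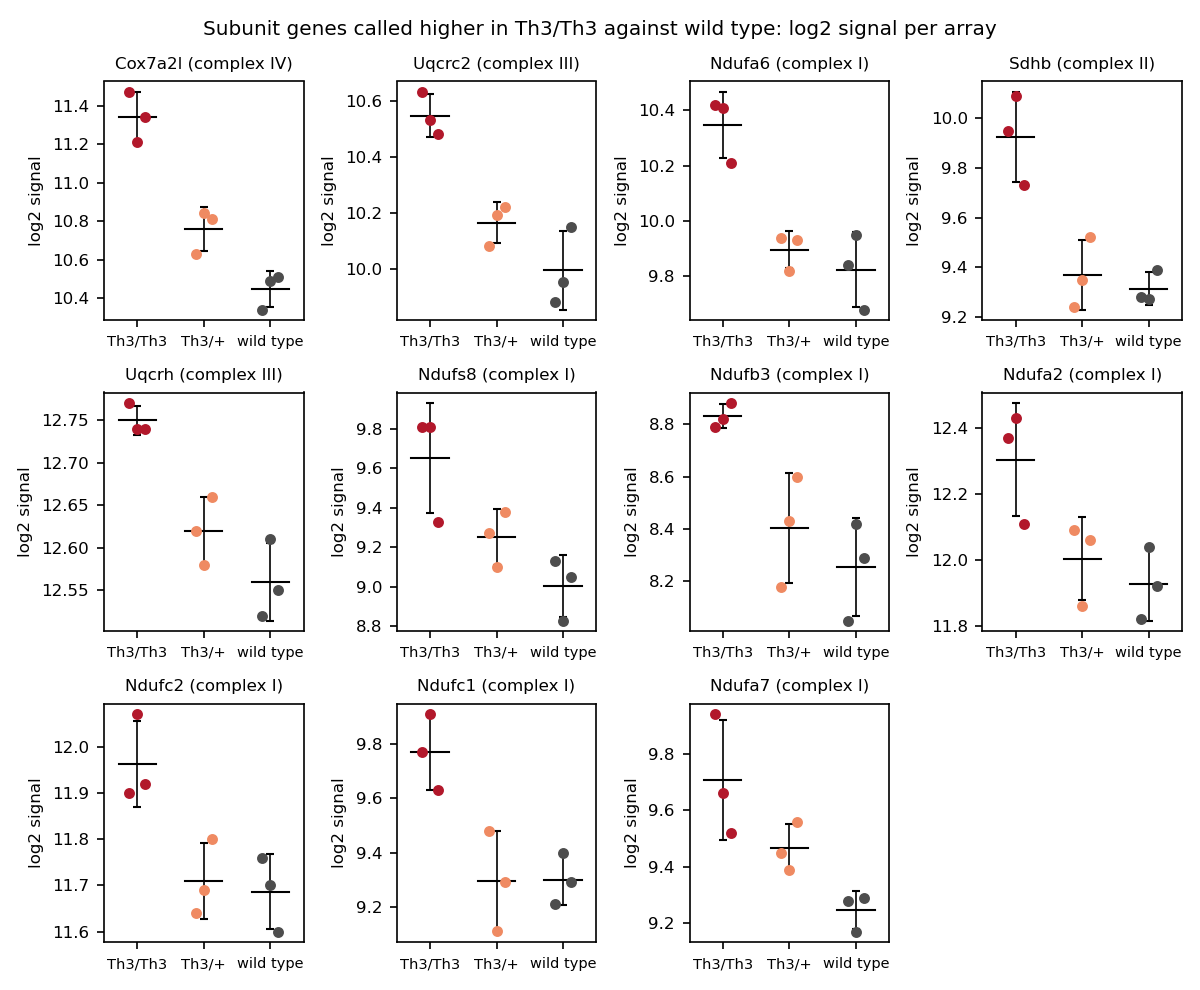
Log2 signal of each array for the 11 subunit genes called higher in Th3/Th3 against wild type, with Th3/Th3 on the left, Th3/+ in the middle and wild type on the right, and the mean ± SD of 3 arrays in black. In every panel the 3 Th3/Th3 arrays lie above the 3 wild type arrays. This separation was seen in 27 of the 77 subunit genes and in 15.4% of all probe sets. At a mean signal of 9 to 12 it was seen in 18 of 51 subunit genes and 381 of 1442 genes of all kinds. At 12 or more it was 4 of 18 and 52 of 161, and under 9 it was 5 of 8 and 1562 of 11295. Each panel has its own scale.

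Ndufc2 and Uqcrc2 lie on chromosome 7, which also carries the beta-globin locus and thus the Th3 allele. In the reference table (GRCm38.p6) Ndufc2 lies 6.4 Mb and Uqcrc2 16.8 Mb from the adult beta-globin genes. Of 7 members on chromosome 7 that were tested, these 2 were called, and of the 70 elsewhere 9 were called (12.9%), against 7.31% of all probe sets called higher. The median change was 0.06 for the 7 members on chromosome 7 and 0.20 for the 70 elsewhere. The part of 129SV sequence that may travel with the allele was not tested.

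Complex IV, cytochrome c oxidase, had the widest range, and apart from Cox7a2l it had 0 calls among 13 genes by limma (4 of all 14 were higher and 1 lower at an unadjusted p under 0.05, Cox7a2l included). Among its ubiquitous subunits, Cox6c, Cox5b, Cox7b, Cox6b1, Cox7a2 and Cox8a had differences between -0.02 and 0.11. Ndufa4 differed by 0.20 (adjusted p = 0.116) and Cox5a, which binds regulatory ligands on the matrix side, by 0.39 (10.09, 10.43 and 10.26 in Th3/Th3 against 9.86, 9.84 and 9.92 in wild type, adjusted p = 0.106). Cox6a1, the broadly expressed form of subunit 6a, had the lowest value, -0.13 (SE 0.05, adjusted p = 0.140), with 12.86, 12.70 and 12.72 in Th3/Th3, 12.85, 12.82 and 12.84 in Th3/+, and 12.84, 12.93 and 12.90 in wild type. Its Th3/Th3 replicate 1 was level with the other genotypes. Without that array Cox6a1 was called lower (-0.18, adjusted p = 0.0325), and quantile normalization gave -0.20 (adjusted p = 0.0140).

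Several complex IV subunits have forms described from muscle or testis. Cox7a1, the heart and muscle form of subunit 7a, differed by 0.55 (5.61, 5.99 and 5.92 in Th3/Th3, 5.48, 5.54 and 4.99 in Th3/+, and 5.28, 5.20 and 5.41 in wild type, adjusted p = 0.0506), and it was called in 8 of the 23 alternatives. The broadly expressed form Cox7a2 differed by 0.06 (adjusted p = 0.648). Cox6a2, the muscle form of subunit 6a, differed by -0.05. Cox6b2, described as a testis form of subunit 6b, read 11.67, 11.53 and 11.50 in Th3/Th3, 11.73, 11.84 and 11.90 in Th3/+, and 11.52, 11.30 and 11.71 in wild type, highest in Th3/+, and differed by 0.06 (adjusted p = 0.805). These values lie well above the array medians of 4.97 to 5.05, and whether the probe set reads only Cox6b2 was not tested. Ndufa4l2, a paralog of Ndufa4 known as a hypoxia-responsive gene, varied widely within each genotype (6.59, 5.77 and 5.48 in Th3/Th3 and 5.41, 6.33 and 4.93 in wild type, difference 0.39, SE 0.36, adjusted p = 0.567). Cox7b2, Cox8b and Cox8c, the forms of testis and muscle, did not pass the filter, with values of 3.35 to 3.75, 4.29 to 4.61 and 4.06 to 4.36 over all arrays.

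Complex V had 0 calls among 17 genes in Th3/Th3 against wild type (limma, 2 at an unadjusted p under 0.05), with a median of 0.09 and 13 differences above 0. Alternatives gave 0 to 2 calls, with 2 under the stricter filter and 1 each with median centring, the replicate block, and without wild type replicate 2 or Th3/+ replicate 1. The c-ring gene Atp5g2 differed most, by 0.58 (SE 0.18, adjusted p = 0.0696), with 9.88, 9.48 and 9.71 in Th3/Th3, 8.89, 9.36 and 9.53 in Th3/+, and 9.26, 9.03 and 9.05 in wild type. Its sister genes Atp5g1 and Atp5g3, which encode the same mature protein, differed by 0.30 (adjusted p = 0.278) and 0.03 (adjusted p = 0.932). Atp5b, the catalytic beta subunit, had the lowest value, -0.17 (adjusted p = 0.349), with 12.25, 12.05 and 12.26 in Th3/Th3 against 12.26, 12.25 and 12.55 in wild type. The 4 genes of the peripheral stalk lay between 0.00 and 0.09. Atp5mpl, a small membrane subunit, differed by 0.27 (adjusted p = 0.0617).

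The complexes thus had medians of 0.27 (I), 0.37 (II), 0.23 (III), 0.06 (IV) and 0.09 (V). Signal level also differed between the complexes, and its part in these medians was not tested. Of the 18 subunit genes with a mean of 12 or more, 14 belonged to complexes IV and V (7 each), 3 to complex I and 1 to complex III. At a mean of 12 or more the medians were 0.21 (I, 3 genes), 0.19 (III, 1 gene), 0.01 (IV, 7 genes) and 0.11 (V, 7 genes). Below a mean of 12 they were 0.28 (I), 0.37 (II), 0.25 (III), 0.39 (IV, 7 genes) and 0.08 (V, 10 genes). The 7 genes of complex IV below 12 were Cox7a2l, the isoforms Cox6a2, Cox6b2, Cox7a1 and Ndufa4l2, and the ubiquitous subunits Cox5a and Cox8a. Over all 9 ubiquitous subunits of complex IV the median was 0.06, with 0 calls. No test was made between complexes, since their genes are not replicates.

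**Figure D3:**
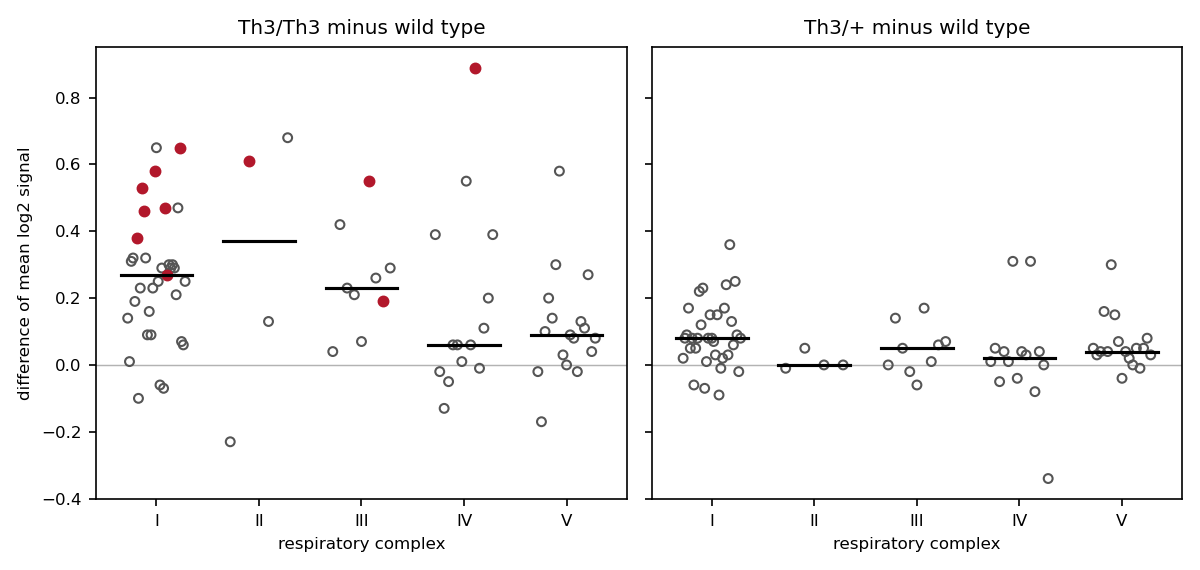
Difference of mean log2 signal for each of the 77 subunit genes by complex, in Th3/Th3 minus wild type (left) and Th3/+ minus wild type (right), with genes at an adjusted p under 0.05 as filled red points and the median of each complex as a black line. The 11 filled points are all in the left panel, and complex V holds none.

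Arrays were also summarised singly, as the median deviation of the subunit genes from the wild type mean. It was 0.21, 0.25 and 0.09 in Th3/Th3 replicates 1, 2 and 3, 0.02, 0.01 and 0.13 in Th3/+, and -0.02, -0.02 and 0.04 in wild type. Th3/Th3 replicate 3 was thus the lowest of its genotype and lay below Th3/+ replicate 3, so the genotypes overlapped on this measure. For complex I alone the Th3/Th3 values were 0.26, 0.33 and 0.15, against 0.04, 0.01 and 0.15 in Th3/+ and 0.01, -0.02 and 0.05 in wild type. Over all probe sets the deviation stayed between -0.01 and 0.03 on every array.

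**Figure D4:**
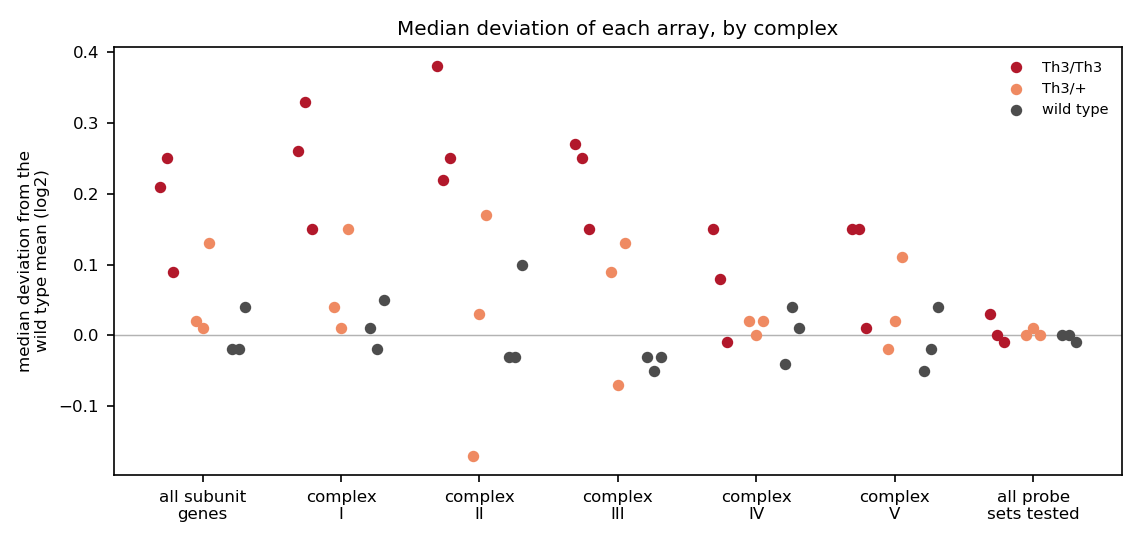
Median deviation of each array from the wild type mean (log2), over all 77 subunit genes, over each complex and over all 17742 probe sets tested, with Th3/Th3, Th3/+ and wild type arrays from left to right in each set. Th3/Th3 arrays sit at 0.09 to 0.25 for all subunit genes, and the Th3/+ array at 0.13 lies among them.

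Th3/+ against wild type asked for an effect of a single Th3 allele. No subunit gene was called in either direction (0 of 77 by limma, 3 at an unadjusted p under 0.05), against 0.0282% of all probe sets higher and 0% lower (0.0155% and 0% of genes). The median was 0.05, and 58 of 77 differences were above 0, against 51.9% of all probe sets. The 3 genes with the smallest p were Cox7a2l (0.31), Cox6b2 (0.31) and Ndufs5, an accessory subunit of complex I (0.36; 9.79, 9.90 and 9.59 in Th3/+ against 9.42, 9.26 and 9.52 in wild type), each with an adjusted p of 1.00. In these 3 and in Ndufa7 the Th3/+ arrays lay above the wild type arrays, 4 of 77 genes, against 4.4% of all probe sets higher and 3.22% lower. Cox7a1 (0.04), Sdhb (0.05) and Ndufc1 (-0.01) were close to 0. Set against the midpoint of the other genotypes, Th3/+ also gave 0 calls among the 77 genes (limma, 1 at an unadjusted p under 0.05), against 0.062% of all probe sets higher and 0.0169% lower (0.0698% and 0.0233% of genes). The gene with the smallest p was Cox6b2 (0.29, adjusted p = 0.408), followed by Sdhb (-0.25, adjusted p = 0.644) and Ndufc1 (-0.25, adjusted p = 0.666).

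Th3/Th3 against Th3/+ shares its Th3/Th3 arrays with the comparison above. It called 3 subunit genes higher and 0 lower, 3.9% of the 77, against 4.01% of all probe sets higher and 3.26% lower (4.5% and 3.68% of genes), so the share was close to the background. The genes were Cox7a2l (0.58, adjusted p = 0.00966), Sdhb (0.55, adjusted p = 0.0333) and Ndufa6 (0.45, adjusted p = 0.0409). Uqcrc2 differed by 0.38 and Ndufc1 by 0.48 without passing (adjusted p = 0.0588 and 0.0602). The calls were lost without both arrays that stood apart (0 calls), and 1 was left without wild type replicate 1, wild type replicate 2, Th3/+ replicate 2, Th3/+ replicate 3 or Th3/Th3 replicate 1.

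Sequences upstream of the subunit genes are shown because these promoters are textbook targets of NRF1, of GABPA (an ETS factor) and of YY1. RefSeq promoters (GRCm38.p6, from 250 bases before to 50 after the annotated start) were at hand for 66 of the 80 genes, 71 promoters in all, including 9 of the 11 called genes. GCATGCG, the core of the NRF1 site, was found on either strand in 15.5% of the members' promoters, against 5.82% of the promoters of genes tested and 3.58% of all promoters. CCGGAAG, an ETS site, was found in 23.9% (17 of 71), against 2035 of the 12756 promoters of genes tested and 8.86% of all. GATGGCG, within the YY1 site, was found in 15.5%, against 5.78% and 3.49%. The letters GGGCGG, bound by SP1, was found in 39.4%, below the 59.0% of genes tested and slightly above the 35.7% of all promoters, and GATAAG, bound by GATA factors, in 5.63% against 5.37%. The remaining motifs were at 42.3% against 37.2% (CCAAT, NFY), 9.86% against 9.55% (CACGTG, the E-box) and 14.1% against 14.2% (TGACNNNGC, the core of the antioxidant response element bound by NRF2, a stress factor distinct from NRF1). Median GC content was 57.3% in the members' promoters, lower than in those of genes tested (difference -2.67 percentage points) and higher than the 52.7% of all promoters. Among the 10 promoters of called genes, 2 held the NRF1 core, 3 the ETS site and 3 the YY1 letters, and among the 61 of genes not called, 9, 14 and 8 did. A match is a description of letters and not a bound site.

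Promoters of 4 called genes are printed 5′ to 3′ on the strand of the gene, with matches to these 3 motifs (NRF1, ETS or YY1, either strand) in capitals: Sdhb at chr4:140961021-140961320 on the plus strand, which holds an NRF1 core and an ETS site apart from each other; Ndufa6 at chr15:82354242-82354541 on the minus strand, with an NRF1 core; Ndufs8 at chr19:3912725-3913024 on the minus strand, with an ETS site on the reverse strand; and Cox7a2l at chr17:83514284-83514583 on the minus strand, the gene with the largest change, which has none of the 3 in this window.
Sdhb: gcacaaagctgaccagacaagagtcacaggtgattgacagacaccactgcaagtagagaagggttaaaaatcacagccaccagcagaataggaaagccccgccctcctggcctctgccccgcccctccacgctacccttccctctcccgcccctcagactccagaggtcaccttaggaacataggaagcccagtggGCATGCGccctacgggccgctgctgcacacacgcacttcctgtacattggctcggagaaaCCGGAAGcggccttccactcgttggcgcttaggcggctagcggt
Ndufa6: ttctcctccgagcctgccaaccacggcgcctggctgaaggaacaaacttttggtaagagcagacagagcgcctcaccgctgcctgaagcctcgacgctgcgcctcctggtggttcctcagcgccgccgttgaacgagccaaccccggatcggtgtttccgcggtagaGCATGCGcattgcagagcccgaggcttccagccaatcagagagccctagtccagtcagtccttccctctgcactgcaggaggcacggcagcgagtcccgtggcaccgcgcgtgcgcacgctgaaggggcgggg
Ndufs8: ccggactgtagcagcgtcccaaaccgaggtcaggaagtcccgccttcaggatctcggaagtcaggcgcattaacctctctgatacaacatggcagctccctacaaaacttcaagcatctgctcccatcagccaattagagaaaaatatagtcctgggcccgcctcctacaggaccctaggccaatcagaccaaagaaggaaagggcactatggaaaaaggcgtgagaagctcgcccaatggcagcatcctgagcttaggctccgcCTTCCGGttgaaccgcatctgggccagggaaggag
Cox7a2l: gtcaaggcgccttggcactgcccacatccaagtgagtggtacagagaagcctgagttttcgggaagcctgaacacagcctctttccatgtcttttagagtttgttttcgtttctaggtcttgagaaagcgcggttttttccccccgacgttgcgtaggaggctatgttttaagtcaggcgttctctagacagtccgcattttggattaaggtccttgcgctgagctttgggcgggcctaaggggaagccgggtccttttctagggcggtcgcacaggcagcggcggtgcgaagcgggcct

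Other genes of the pathway were taken from lists, which like the members were drawn up with earlier results known. Assembly factors, which help to build the complexes and do not stay in them, come first. Of 14 factors of complex I past the filter, 4 rose and 0 fell in Th3/Th3 against wild type, with a median of 0.43, against 7.31% and 4.98% of all probe sets. Tmem126b, needed for the membrane arm, rose by 1.16 (8.91 ± 0.34 in Th3/Th3, 8.32 ± 0.05 in Th3/+ and 7.75 ± 0.35 in wild type, SD, n = 3 each, adjusted p = 0.00726). Tmem186, its partner, rose by 0.71 (adjusted p = 0.00319). Ndufaf5, which hydroxylates Ndufs7, rose by 1.01 (adjusted p = 0.0310), and Ndufaf2 by 0.74 (adjusted p = 0.0312). Ndufaf3 had the lowest value, -0.49 (adjusted p = 0.0940).

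Of 30 assembly factors of complexes II to V, 6 rose (20%) and 0 fell, with a median of 0.35, against 7.31% and 4.98% of all probe sets. Cox14, which holds the nascent mitochondrial COX1 protein, rose by 1.31 (9.83 ± 0.13 in Th3/Th3, 8.69 ± 0.10 in Th3/+ and 8.51 ± 0.04 in wild type, SD, n = 3 each, adjusted p = 0.000233). Surf1, another complex IV factor, rose by 1.27 (adjusted p = 0.000922). The complex III factors Uqcc3 and Uqcc1 rose by 1.14 and 1.04 (adjusted p = 0.00316 and 0.0111). The copper chaperone Cox19 and the flavinylation factor Sdhaf2 rose by 0.74 and 0.62. Against Th3/+ the list had 7 higher and 0 lower of 30, against 4.01% and 3.26% of all probe sets, led by Cox14 (1.14, adjusted p = 0.000884). In Th3/+ against wild type neither list had a member past the test (limma, with 2 of 14 and 1 of 30 at an unadjusted p under 0.05). The lists' medians were not tested against that of the subunit genes.

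The remaining lists held few calls, to be read against the 7.31% of all probe sets called higher and 4.98% called lower in Th3/Th3 against wild type. Of 7 subunits and partners outside the symbol rule, 1 rose and 0 fell. Higd1a, a hypoxia-inducible partner of complex IV, rose by 0.96 (11.68 ± 0.13 in Th3/Th3, 10.97 ± 0.08 in Th3/+ and 10.72 ± 0.24 in wild type, adjusted p = 0.00149). Atpif1, the inhibitor of ATP synthase, differed by -0.11 (adjusted p = 0.0915). Of 11 genes of coenzyme Q synthesis, 2 rose and 0 fell, Coq5 by 0.73 (adjusted p = 0.0406) and Coq8a by 0.36 (adjusted p = 0.0491). Of 7 other enzymes that feed electrons to ubiquinone, Etfdh rose by 0.97 (adjusted p = 0.00716). The list of the tricarboxylic acid cycle and of pyruvate enzymes that supply it went both ways, with 2 higher and 2 lower of 17. Sucla2 and Suclg1, of succinyl-CoA synthetase, rose by 1.13 and 0.65 (adjusted p = 0.0209 and 0.0122), while the pyruvate carboxylase gene Pcx fell by 1.73 (adjusted p = 0.00144) and Ogdh, of the 2-oxoglutarate dehydrogenase complex, fell by 1.15 (adjusted p = 0.00967). Of 15 regulators of respiratory genes, 1 rose (6.67%, near the background), the nuclear receptor gene Ppard (1.00, adjusted p = 0.00610), and Nrf1 and Gabpa differed by -0.44 and 0.35 (adjusted p = 0.162 and 0.176).

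Mitochondrial DNA gave a contrast in direction. Of its protein-coding transcripts, 2 had a single-symbol probe set, and both fell in Th3/Th3 against wild type. COX2, a catalytic subunit of complex IV, fell by 0.37 (12.08 ± 0.07 in Th3/Th3, 12.29 ± 0.13 in Th3/+ and 12.44 ± 0.14 in wild type, SD, n = 3 each, adjusted p = 0.0262). ND3, a subunit of complex I, fell by 0.69 (10.79 ± 0.29 in Th3/Th3, 11.05 ± 0.03 in Th3/+ and 11.47 ± 0.22 in wild type, adjusted p = 0.0175). Whether these probe sets also read nuclear copies of mitochondrial DNA was not tested. In Th3/+ against wild type they differed by -0.15 and -0.42, each with an adjusted p of 1.00.

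**Figure D5:**
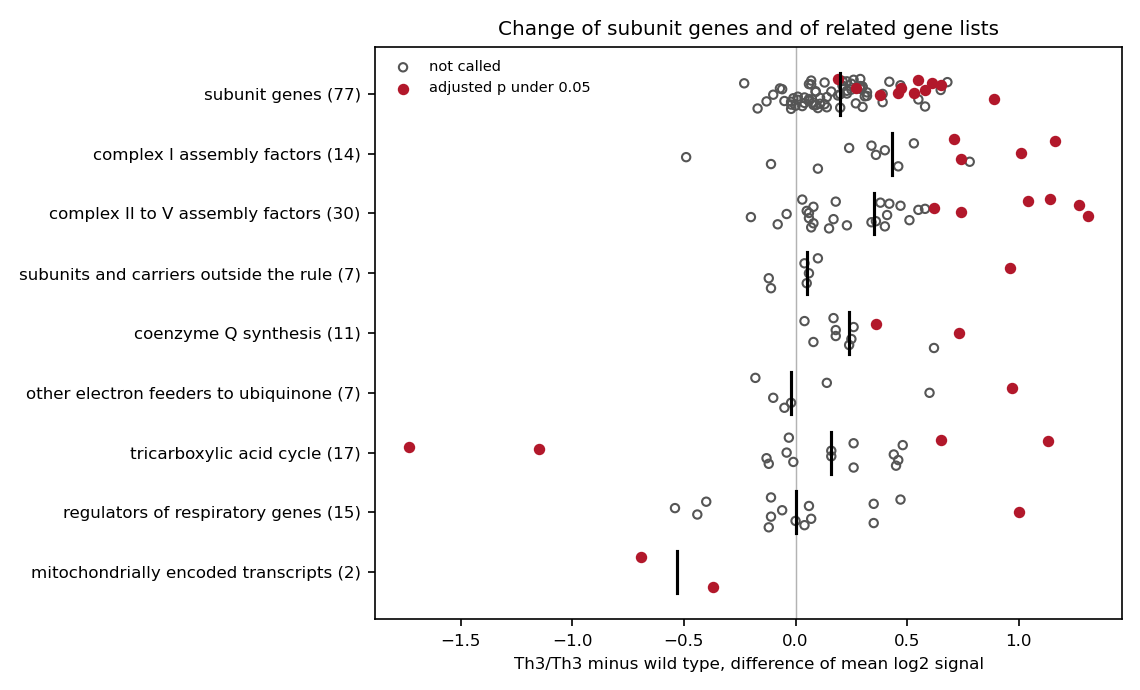
Difference of mean log2 signal in Th3/Th3 minus wild type for the 77 subunit genes and for the related lists (number of genes in parentheses), with genes at an adjusted p under 0.05 as filled red points and list medians as black lines. The called assembly factors extend to 1.31 and the called subunit genes to 0.89, while COX2 and ND3 lie below 0.

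Some members could not be measured cleanly. There were 16 subunit genes with several single-symbol probe sets, up to 6 for Atp5l, and many such genes have near-identical processed copies in the genome, so a probe set may read more than 1 locus. The probe sets of a gene gave the same call in all 16 and differed by at most 0.22 in the change. Cox7c, Ndufb4 and Ndufs5 also had probe sets shared with a second symbol. The shared ones of Cox7c read 0.04 to 0.06 and those of Ndufb4 0.28 and 0.30, none of them called. The probe set shared by Ndufs5 and Ndufs5-ps passed the test (0.28, adjusted p = 0.0473), while Ndufs5's own gave 0.29 (adjusted p = 0.232).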

How the data were processed

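Gene expression was measured on 1 array for each of 9 samples. The authors deposited log2 values, 1 per probe set and array; the submitters' processing notes name MAS5. How background was corrected and probes summarised is not given in the sources used here. No further normalization was applied. Of 35556 probe sets, 6617 below the first annotated identifier were left out as the control block, and 21789 of the others have 1 gene symbol, 1621 several and 5529 none listed. Identifiers of all 80 members matched the reference table (GRCm38.p6), with 0 symbols changed.

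A probe set entered the test when its signal exceeded the array's 40th percentile on 3 or more arrays (17742 did). All 9 arrays went into 1 limma fit (version 3.58.1, R 4.3.3), with a coefficient for each genotype, using lmFit and then eBayes with its trend option. P-values are two-sided and adjusted by Benjamini-Hochberg across the 17742, with calls made below 0.05. An exact permutation of 3 against 3 arrays cannot give a two-sided p under 0.1. Changes are differences of mean log2 values, and standard errors use the moderated variance. The number of arrays limits the precision. The procedure was tested on simulated data.

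Members and lists were chosen with earlier results of these data known. Genes named are, per comparison, the called members (up to 15) or the 3 with the smallest p, the largest rise and fall per complex, tissue isoforms, members below the filter, and per list up to 4 called genes or the 2 with the smallest p. Sdhaf2, Cox19, Uqcc1, Cox5a, Atp5mpl, Ndufb5, Ndufs7, Ndufv2, Sdhc, Cyc1, Ndufaf3, Nrf1 and Gabpa were named after their values were seen, as were the genes given for scale within complexes IV and V. Alternatives covered normalization, filter, variance model, array weights, probe set choice, the replicate block and arrays left out.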

Additional observations from a re-analysis of the deposited data

How the results depend on the processing

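Over 23 alternatives the median change of the subunit genes in Th3/Th3 against wild type stayed between 0.15 and 0.25, but the number called, 11, was less stable. It was 6 with no filter, 17 with the stricter filter (60th percentile), 6 with only the 6 arrays compared, and 3 to 12 when single arrays were left out. With replicates 2 and 3 only in all genotypes, an alternative chosen after seeing the data, it was 2, of which 1 was higher and 1, Cox6a1, lower (-0.21, adjusted p = 0.0494). A restriction to probe sets with a mean under 12 was also added then. For Th3/Th3 against Th3/+, where 3 were called, it was 6 with the stricter filter, 5 without the mean-variance trend, 5 with array weights, 1 with only the 6 arrays compared, 0 without the 2 arrays that stood apart, 0 with replicates 2 and 3 only, and 1 to 4 when single arrays were left out. Fewer arrays or another number of probe sets tested are part of these settings, and the cause was otherwise not tested. In Th3/+ against wild type the count was 0 under all 22 alternatives, and against the midpoint under all 21. No gene called in the 3 pairwise comparisons changed direction. The replicate numbers of the labels were checked as pairs: deviations of same-numbered arrays correlated between 0.06 and 0.25 (Th3/Th3 and wild type), -0.13 and 0.36 (Th3/+ and wild type) and 0.07 and 0.28 (Th3/Th3 and Th3/+). Since 3 of the 9 did not exceed 0.1, the numbers were not taken as pairs in the main fit. However, 8 of the 9 were above 0, against 5 of 18 correlations between differently numbered arrays. Array medians followed the number as well (5.03 to 5.05 for replicate 1 and 4.97 to 4.99 for replicate 3 of all genotypes), as did the second principal component. The main fit makes no allowance for the replicate number, so its calls are to be read beside those with the replicate block. Th3/+ replicate 1 correlated better with wild type replicate 2 (0.25) than with replicate 1 (0.13). With the replicate block, 9 genes were called in Th3/Th3 against wild type, 7 of them among the 11 (without Ndufa2, Ndufa7, Ndufc1 and Ndufc2, and with Sdhd and Atp5mpl), 3 in Th3/Th3 against Th3/+, and 0 in the other comparisons. The member with the highest mean, Cox6c, lay at 13.3, near the array maxima of 14.03 to 14.20, and saturation was not tested.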
